A study of Mus musculus with 16 samples.

Results

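The 38 mouse acute phase genes described here were followed in 16 livers. They were chosen by symbol, as serum amyloids, orosomucoids, carriers of haem, iron and copper, pentraxins and lipopolysaccharide receptors, fibrinogens, inter-alpha inhibitors, serpins, metallothioneins and a few others, and all 38 were found among the 55416 genes counted. Of these, 37 had enough counts to be tested. A2m, which encodes alpha-2-macroglobulin, fell below the filter on low counts, at 0 to 42 counts a liver. The livers came from wild-type C57BL/6J mice, 8 weeks old, that received an adenovirus by tail vein, either Ad-FAT10, which overexpresses FAT10, or the control Ad-CTRL. From 4 days later they were gavaged with 1 mpk of pemafibrate (Pema), an agonist of the nuclear receptor PPARα, or with the vehicle CMC, 18 h and 5 h before the liver was taken, and they fasted for the last 5 h. This gave 4 groups of 4 livers: Ad-FAT10 Pema, Ad-FAT10 CMC, Ad-CTRL Pema and Ad-CTRL CMC. Every mouse thus carried an adenovirus, and no uninfected liver was analysed here. The sources used here do not state the promoter that drove FAT10, the sex of the mice or which cells took up the virus. The design asks how the liver's answer to pemafibrate depends on FAT10.

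Ubd, the gene of FAT10, averaged 459.8 ± 64.3 CPM (its count scaled to the library's total, after TMM scaling) in Ad-FAT10 Pema, 237 ± 116 in Ad-FAT10 CMC, 27.5 ± 14.4 in Ad-CTRL Pema and 11.2 ± 3.05 in Ad-CTRL CMC (SD, n = 4 each), so the Ad-FAT10 labels held. Ubd was also called higher with pemafibrate by the edgeR test described below. Its log2 change was 0.96 (adjusted p = 0.041) in Ad-FAT10 and 1.30 (adjusted p = 0.0095) in Ad-CTRL livers. The call in Ad-FAT10 was lost when any of 7 livers was left out (adjusted p up to 0.12). That in Ad-CTRL was lost without Ad-CTRL Pema replicate 2 (adjusted p = 0.052). Library totals ran from 18663498 to 28898229 counts, where 3 counts are 0.0889 to 0.176 CPM after TMM scaling. Summed over 8 markers, hepatocyte transcripts were abundant in every liver, at 37435 to 55929 CPM in Ad-FAT10 Pema, 50854 to 59937 in Ad-FAT10 CMC, 59780 to 86487 in Ad-CTRL Pema and 68634 to 95182 in Ad-CTRL CMC. With Ad-FAT10 6 of the 8 were called lower under Pema and 3 under CMC, where 20.5% and 20.2% of all genes were. Under Pema the call of Hnf4a was lost when any of 5 livers was left out (adjusted p up to 0.11). That of F9 was lost when any of 2 was left out (adjusted p up to 0.070). The same shares of all genes stand beside the endothelial and stellate counts below. Sums of 5 endothelial markers were also mostly lower in Ad-FAT10 livers, at 91.7 to 141.3 CPM in Ad-FAT10 Pema and 89.7 to 123 in Ad-FAT10 CMC. They were 140.7 to 225 CPM in Ad-CTRL Pema and 140.7 to 195 in Ad-CTRL CMC, so the Pema groups overlapped. Of the 5 endothelial markers 3 were called lower in each treatment. Sums of 5 stellate cell markers were 64.1 to 89.8 CPM in Ad-FAT10 Pema and 60.4 to 88.8 in Ad-FAT10 CMC, against 101 to 152 in Ad-CTRL Pema and 105 to 136 in Ad-CTRL CMC, with 2 of the 5 called lower under Pema and 3 under CMC. The call of the stellate marker Lrat under CMC was lost when any of 9 livers was left out (adjusted p up to 0.28). One liver stood apart for the acute phase genes, Ad-FAT10 CMC replicate 2, where the 38 genes took 10.2% of all counts. The share averaged 3.98% ± 0.309 in Ad-FAT10 Pema, 7.28% ± 2.08 in Ad-FAT10 CMC, 4.25% ± 0.494 in Ad-CTRL Pema and 6.66% ± 0.704 in Ad-CTRL CMC (SD, n = 4 each). Results that rest on that liver are given with and without it.

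The acute phase response is the change in the plasma proteins that the liver makes during infection or injury. Interleukin-6, acting through its receptor and the transcription factor STAT3, and interleukin-1 and tumour necrosis factor, acting through NF-kB, raise the positive reactants, often together with C/EBP factors, while negative reactants such as albumin and transthyretin fall. In mice the serum amyloids A, serum amyloid P and haptoglobin are prominent, and C-reactive protein, the classical human reactant, responds little. PPARα agonists are known to lower acute phase genes in liver. In the grouping used here 23 of the 38 are positive reactants, 11 are made constitutively or are negative, and 4 (Serpina3g, Serpina3m, A2m and Agt) were left without a class.

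The sequences upstream of 7 amyloid, orosomucoid and lipocalin genes are shown. Their changes are described in what follows and differed from gene to gene. Each is the 250 bases upstream of the transcription start, from RefSeq on build GRCm38.p6 and written on the gene's own strand, with capitals marking every match to the C/EBP motif TTGCNNAA on either strand. RefSeq held such a window for 31 of the 38 genes.
Saa1, chr7:46742981-46743230, minus strand: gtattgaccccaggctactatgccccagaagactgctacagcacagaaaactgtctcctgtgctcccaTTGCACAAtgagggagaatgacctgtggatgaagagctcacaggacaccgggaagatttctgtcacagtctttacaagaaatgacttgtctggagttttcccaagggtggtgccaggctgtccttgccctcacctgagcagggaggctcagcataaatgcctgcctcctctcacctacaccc
Saa2, chr7:46751583-46751832, plus strand: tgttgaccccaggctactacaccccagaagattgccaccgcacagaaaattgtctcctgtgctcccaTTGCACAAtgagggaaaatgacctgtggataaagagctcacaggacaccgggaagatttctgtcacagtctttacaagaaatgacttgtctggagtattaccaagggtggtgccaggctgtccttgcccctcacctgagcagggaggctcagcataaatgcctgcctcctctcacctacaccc
Saa3, chr7:46715677-46715926, minus strand: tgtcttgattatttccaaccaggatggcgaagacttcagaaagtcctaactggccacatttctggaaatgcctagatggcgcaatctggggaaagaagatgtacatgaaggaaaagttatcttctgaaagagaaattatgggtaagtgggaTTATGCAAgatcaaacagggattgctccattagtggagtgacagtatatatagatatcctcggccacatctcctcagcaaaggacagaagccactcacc
Saa4, chr7:46732604-46732853, minus strand: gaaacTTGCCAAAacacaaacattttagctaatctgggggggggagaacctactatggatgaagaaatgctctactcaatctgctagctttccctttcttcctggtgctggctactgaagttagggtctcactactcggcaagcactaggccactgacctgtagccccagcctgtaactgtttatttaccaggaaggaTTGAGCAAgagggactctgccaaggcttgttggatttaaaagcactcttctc
Orm2, chr4:63362199-63362448, plus strand: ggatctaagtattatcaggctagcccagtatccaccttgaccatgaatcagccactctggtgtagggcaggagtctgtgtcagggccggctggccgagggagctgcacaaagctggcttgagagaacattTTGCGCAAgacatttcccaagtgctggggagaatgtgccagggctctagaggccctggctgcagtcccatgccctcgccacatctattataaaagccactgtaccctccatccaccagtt
Orm3, chr4:63355908-63356157, plus strand: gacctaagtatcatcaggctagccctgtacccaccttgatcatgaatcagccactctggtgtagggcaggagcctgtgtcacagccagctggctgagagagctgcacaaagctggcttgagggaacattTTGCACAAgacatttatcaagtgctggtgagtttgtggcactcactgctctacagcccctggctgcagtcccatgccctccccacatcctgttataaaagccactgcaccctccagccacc
Lcn2, chr2:32387740-32387989, minus strand: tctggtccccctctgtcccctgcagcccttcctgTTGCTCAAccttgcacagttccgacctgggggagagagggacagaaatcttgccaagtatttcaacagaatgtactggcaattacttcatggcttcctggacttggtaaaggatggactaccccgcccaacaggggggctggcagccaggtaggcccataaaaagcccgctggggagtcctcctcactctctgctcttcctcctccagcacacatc
Saa1 and Saa2 start at neighbouring sites on opposite strands, and their windows were 94.8% identical in alignment. The windows of Orm2 and Orm3 were 85.5% identical. Saa1 shared 48.9% with Saa3 and 42.6% with Saa4, and it shared 47.4% with Orm2, a gene of another family. Of the 31 genes, 17 had the C/EBP letters in a window, against 9.56% of all 32851 windows. Here and for the next motifs the set was counted by gene and the share of all by window. The 17 include close copies, such as Saa1 and Saa2, Orm2 and Orm3, and Serpina1b, Serpina1d and Serpina1e, so they are not independent of each other. The STAT motif TTCNNNGAA was in 7 of the 31 (Agt, Apcs, Fga, Fgb, Itih4, Serpina3g and Steap4), against 7.02% of all. The NF-kB motif, GGG and CC with 5 bases of any kind between them, was in 18 of 31, and it is common, in 45.8% of all. The core of the metal response motif, TGCNCNC, was in 10 of 31, among them Mt1 and Mt2, and in 44.4% of all. A PPAR direct repeat, AGGTCA with 1 base between its copies, was in 0 of the 31 and in 0.0335% of all. Both strands were read and matches could overlap between motifs. These are matches of letters and not sites of binding.

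Pemafibrate lowered acute phase genes in both adenoviruses. In Ad-FAT10 livers 24 of the 38 genes fell and 0 rose, where 12.5% of all genes fell and 12.9% rose. A gene was called by edgeR's quasi-likelihood test at an adjusted p under 0.05 (Benjamini-Hochberg, 14770 genes), and 0 also rose at an unadjusted p under 0.05 or by DESeq2. In Ad-CTRL livers 18 fell and 1, Cd14, rose, where 14.4% of all genes fell and 16.2% rose. The median log2 change over the 37 tested genes was -0.88 in Ad-FAT10 and -0.60 in Ad-CTRL livers, beside -0.01 for all genes tested in each. For 25 of them every Pema liver lay below every CMC liver of the Ad-FAT10 groups, against 12.3% of all genes, and for 18 of them in the Ad-CTRL groups, against 14.6%. In neither pair of groups did any acute phase gene have every Pema liver above every CMC liver, as 13.1% of all genes did in Ad-FAT10 and 16.1% in Ad-CTRL. Under CMC 15 were higher and 8 lower in Ad-FAT10 than in Ad-CTRL livers, where 22.5% of all genes were higher and 20.2% lower. Under Pema 10 were higher and 10 lower, where 21.2% of all genes were higher and 20.5% lower. Groups did not overlap for 10 higher genes under Pema (19.0% of all genes) and 10 under CMC (20.3%), and for 8 lower ones under Pema (18.0%) and 8 under CMC (17.8%). Changes below are log2 differences with their SE and adjusted p from this test, positive where Pema or Ad-FAT10 was higher. When livers were scaled by library totals in place of TMM, the median of all genes stood 0.28 higher on the log2 scale with Ad-FAT10 under CMC and 0.34 higher under Pema. Relative to those totals Crp, Agt, Serpina1e, Apcs, Itih1, Orm1 and Serpina1c each lost a call of lower with Ad-FAT10, and Cd14 its call with pemafibrate. In turn 11 values of single acute phase genes gained a call. These 4 comparisons share livers, and they are not independent of each other. Of the 8 hepatocyte markers 3 also fell with pemafibrate in each adenovirus and 0 rose, with Cps1 and Tat falling in both. The call of Hnf4a in Ad-FAT10 was lost when any of 6 livers was left out. That of Asgr1 in Ad-CTRL was lost when any of 4 was left out. The part of hepatocytes in the falls of the acute phase genes was not tested. Fewer cells of a type and less RNA per cell cannot be told apart in whole liver.

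**Figure D1:**
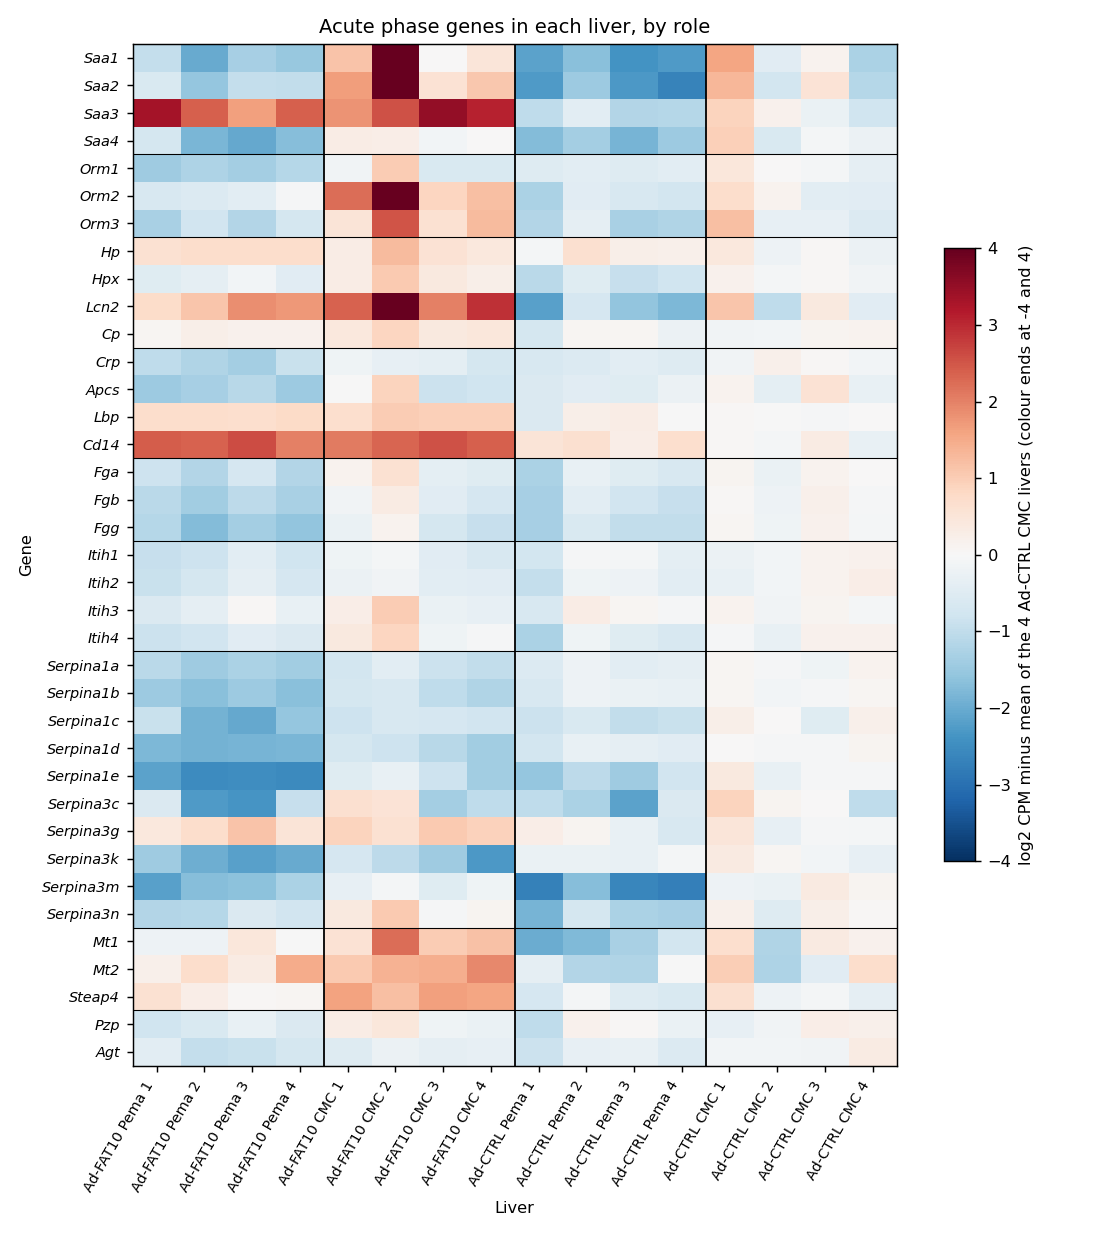
Log2 CPM of the 37 tested acute phase genes in each of the 16 livers, minus the mean of the 4 Ad-CTRL CMC livers, grouped by role, with colour from -4 to 4. Serpina1 genes are blue throughout the Ad-FAT10 Pema livers, Saa3, Lcn2 and Cd14 are red in the Ad-FAT10 livers, and Ad-FAT10 CMC replicate 2 has the deepest red for Saa1, Saa2, Orm2 and Lcn2.

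Serum amyloids of the A family are small apolipoproteins of high density lipoprotein. In the liver Saa1 and Saa2 are the main inducible forms, Saa3 is also made by macrophages and other cells outside the hepatocyte, and Saa4 is constitutive. Saa1, Saa2 and Saa4 fell with pemafibrate in both adenoviruses, and Saa3 was higher with Ad-FAT10 in both treatments. The level of Saa3 was 228, 119, 72.3 and 119 CPM in the Ad-FAT10 Pema livers, 80.2, 135, 262 and 193 in Ad-FAT10 CMC, 11.4, 16.99, 10.1 and 10.2 in Ad-CTRL Pema and 42.3, 25.7, 19.2 and 13.1 in Ad-CTRL CMC. All 8 Ad-FAT10 livers lay above all 8 Ad-CTRL livers. The log2 change with Ad-FAT10 was 3.47 ± 0.41 (SE, adjusted p = 8.6e-06) under Pema and 2.74 ± 0.40 (adjusted p = 4.0e-05) under CMC, or 11.1-fold and 6.70-fold. With pemafibrate it changed by -0.32 ± 0.37 (adjusted p = 0.59) in Ad-FAT10 and -1.04 ± 0.40 (adjusted p = 0.054) in Ad-CTRL livers, neither past the threshold. In Ad-CTRL livers that second value passed when any of 6 of the 16 livers was left out.

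Saa4 measured 389.8, 177, 155 and 197 CPM in Ad-FAT10 Pema, 779.8, 771, 591 and 637 in Ad-FAT10 CMC, 193, 247, 174 and 232 in Ad-CTRL Pema and 1217, 417, 597 and 539 in Ad-CTRL CMC. Pema livers lay below CMC livers in both adenoviruses, with no overlap. Saa4 fell with pemafibrate at -1.60 ± 0.30 on the log2 scale in Ad-FAT10 (SE, adjusted p = 6.8e-04), and the value in Ad-CTRL livers was -1.71 ± 0.30 (adjusted p = 2.7e-04). Ad-FAT10 gave 0.12 ± 0.29 (adjusted p = 0.77) under Pema and 0.01 ± 0.29 (adjusted p = 0.99) under CMC.

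Saa2 measured 116, 61.4, 92.4 and 90.6 CPM in Ad-FAT10 Pema, 565, 6516, 265 and 376 in Ad-FAT10 CMC, 37.3, 65.2, 35.9 and 27.9 in Ad-CTRL Pema and 449, 106, 260.4 and 81.5 in Ad-CTRL CMC. Again the Pema livers lay below the CMC livers in both adenoviruses, and the CMC groups overlapped, with 2 Ad-FAT10 CMC livers, at 565 and 6516 CPM, above every Ad-CTRL CMC liver. Saa2 fell with pemafibrate at -4.42 ± 0.87 (SE, adjusted p = 0.0010) in Ad-FAT10 and -2.43 ± 0.80 (adjusted p = 0.027) in Ad-CTRL livers. Without Ad-FAT10 CMC replicate 2 the change in Ad-FAT10 livers was -2.14 ± 0.45 (adjusted p = 0.0025). Saa1 ranged over 84.4 to 177 CPM in Ad-FAT10 Pema, 343 to 5470.0 in Ad-FAT10 CMC, 65.4 to 107 in Ad-CTRL Pema and 141 to 1009 in Ad-CTRL CMC, and replicate 2 was again the top of its group. Saa1 fell with pemafibrate at -3.78 ± 0.76 (SE, adjusted p = 0.0012) in Ad-FAT10 and -2.47 ± 0.72 (adjusted p = 0.014) in Ad-CTRL livers, and without Ad-CTRL CMC replicate 1 the comparison in Ad-CTRL did not pass (adjusted p = 0.075). The call of Saa2 in Ad-CTRL was lost without Ad-CTRL CMC replicate 1 or 3 or Ad-CTRL Pema replicate 1, 3 or 4, with an adjusted p of up to 0.10. Under CMC both were called higher with Ad-FAT10, Saa2 at 3.11 ± 0.82 (adjusted p = 0.0056) and Saa1 at 1.99 ± 0.71 (adjusted p = 0.030). Without replicate 2 these changes were 0.82 ± 0.44 (adjusted p = 0.15) and 0.22 ± 0.46 (adjusted p = 0.73), so both calls were lost without that liver. For Saa1 under CMC the call was also lost without Ad-CTRL CMC replicate 2, 3 or 4. Under Pema, Ad-FAT10 gave 1.12 ± 0.77 (adjusted p = 0.26) for Saa2 and 0.68 ± 0.69 (adjusted p = 0.45) for Saa1.

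The transcripts of Saa1 and Saa2 are 93.5% identical where they align, and 9.11% of the 50-base stretches of Saa1 also occur in Saa2, so some reads can pass between them. Their summed counts gave -4.08 ± 0.81 (adjusted p = 0.0011) and -2.46 ± 0.76 (adjusted p = 0.019) with pemafibrate in Ad-FAT10 and Ad-CTRL livers, and 2.46 ± 0.75 (adjusted p = 0.014) with Ad-FAT10 under CMC. Without Ad-FAT10 CMC replicate 2 the sum gave -2.07 ± 0.45 (adjusted p = 0.0034) in Ad-FAT10 and -2.48 ± 0.44 (adjusted p = 3.6e-04) in Ad-CTRL livers, and 0.45 ± 0.45 (adjusted p = 0.45) with Ad-FAT10 under CMC, which did not pass. The mix of the pair also lay apart by adenovirus, a description with no test. Saa2 counts per Saa1 count were 0.654 to 0.768 in Ad-FAT10 Pema and 0.752 to 1.19 in Ad-FAT10 CMC, against 0.397 to 0.609 in Ad-CTRL Pema and 0.424 to 0.689 in Ad-CTRL CMC. In the Pema groups the ratios of the Ad-FAT10 and Ad-CTRL livers did not overlap, and neither did those in the CMC groups. The highest ratio, 1.19, was that of Ad-FAT10 CMC replicate 2.

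**Figure D2:**
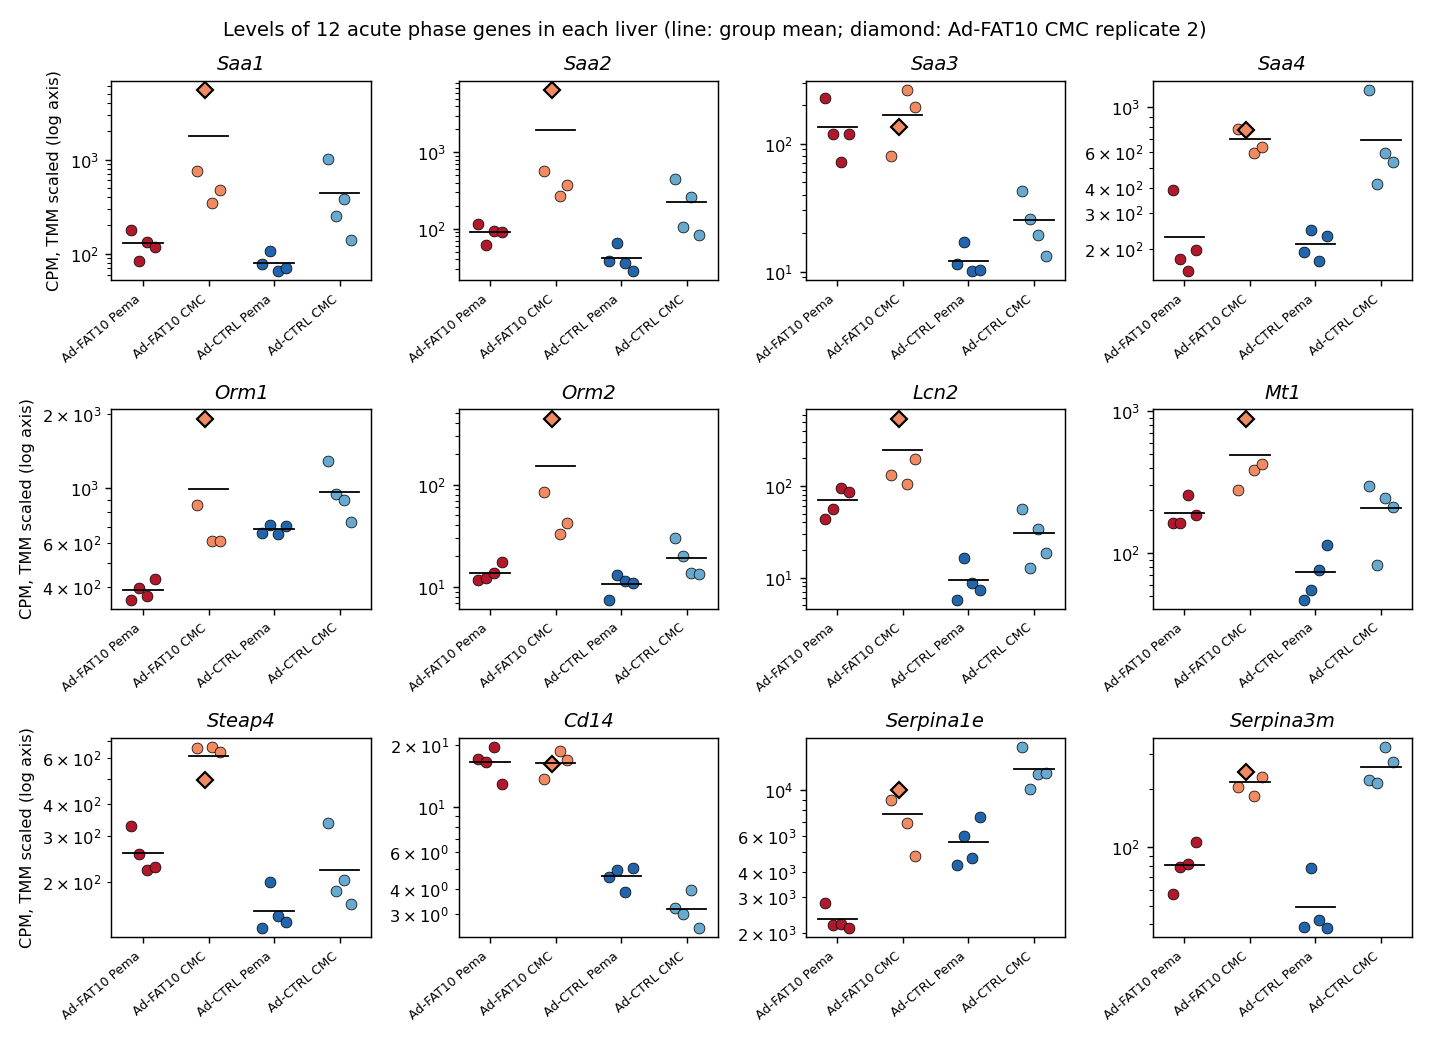
Level of 12 acute phase genes in each liver, as CPM after TMM scaling on a log axis, with the 4 groups along the horizontal axis, a line at each group mean and a diamond for Ad-FAT10 CMC replicate 2. The diamond is at the top for Saa1 (5470 CPM), Saa2 (6516 CPM), Orm1, Orm2, Lcn2 and Mt1, and inside or below its group for Saa3, Cd14 and Steap4.

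Orosomucoids, the alpha-1-acid glycoproteins, are lipocalins of plasma that carry drugs and lipids. All 3 fell with pemafibrate in Ad-FAT10 livers. In Ad-CTRL livers the changes did not pass with all 16 livers, and all 3 passed as lower when Ad-FAT10 CMC replicate 2 was left out of the fit. Every Pema liver lay below every CMC liver there for Orm1 and Orm2. Orm2 measured 11.7, 12.4, 13.6 and 17.6 CPM in Ad-FAT10 Pema, 85.8, 444, 33.1 and 42.3 in Ad-FAT10 CMC, 7.52, 13.1, 11.5 and 10.9 in Ad-CTRL Pema and 29.9, 20.2, 13.6 and 13.3 in Ad-CTRL CMC. All Ad-FAT10 CMC livers lay above all other livers. The change with pemafibrate was -3.45 ± 0.62 (SE, adjusted p = 4.5e-04) in Ad-FAT10 and -0.83 ± 0.61 (adjusted p = 0.34) in Ad-CTRL livers, and that with Ad-FAT10 under CMC was 2.98 ± 0.61 (adjusted p = 8.3e-04), or 7.89-fold. Without replicate 2 these became -1.94 ± 0.30 (adjusted p = 2.0e-04) with pemafibrate in Ad-FAT10, -0.85 ± 0.30 (adjusted p = 0.036) in Ad-CTRL and 1.46 ± 0.30 (adjusted p = 0.0011) with Ad-FAT10 under CMC.

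Orm3, the least abundant orosomucoid, measured 0.849, 1.26, 0.949 and 1.33 CPM in Ad-FAT10 Pema, 3.21, 13.1, 3.47 and 5.49 in Ad-FAT10 CMC, 0.934, 1.71, 0.848 and 0.925 in Ad-CTRL Pema and 5.22, 1.76, 1.76 and 1.49 in Ad-CTRL CMC. Its Pema and CMC livers did not overlap in Ad-FAT10. Orm3 fell there at -2.52 ± 0.45 (SE, adjusted p = 4.5e-04) and gave -1.19 ± 0.50 (adjusted p = 0.079) in Ad-CTRL livers. Without replicate 2 these were -1.87 ± 0.37 (adjusted p = 0.0017) in Ad-FAT10 and -1.22 ± 0.38 (adjusted p = 0.023) in Ad-CTRL livers. It was higher with Ad-FAT10 under CMC, at 1.33 ± 0.43 (adjusted p = 0.018), a call lost without Ad-CTRL CMC replicate 2, 3 or 4 or Ad-FAT10 CMC replicate 2, without which it was 0.67 (adjusted p up to 0.15).

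Orm1 measured 356, 398, 369 and 431 CPM in Ad-FAT10 Pema, 856, 1910.2, 614 and 613 in Ad-FAT10 CMC, 663, 713, 657 and 705 in Ad-CTRL Pema and 1285, 948, 898 and 731 in Ad-CTRL CMC. The Ad-FAT10 Pema livers were the lowest of all 16. Orm1 fell with pemafibrate in Ad-FAT10 at -1.36 ± 0.27 (adjusted p = 0.0013), against -0.50 ± 0.27 (adjusted p = 0.19) in Ad-CTRL livers, and under Pema it was lower with Ad-FAT10 at -0.82 ± 0.27 (adjusted p = 0.022). Without replicate 2 it gave -0.82 ± 0.16 (adjusted p = 0.0015) with pemafibrate in Ad-FAT10 and -0.52 ± 0.15 (adjusted p = 0.014) in Ad-CTRL livers. The difference under CMC, 0.05 ± 0.27 (adjusted p = 0.90), turned to -0.50 ± 0.16 (adjusted p = 0.022) without replicate 2, which passed in the lower direction. Since Orm1 and Orm2 transcripts are 91.0% identical, the 3 were also summed, which gave -1.52 ± 0.31 (adjusted p = 0.0012) with pemafibrate in Ad-FAT10 and -0.50 ± 0.30 (adjusted p = 0.23) in Ad-CTRL livers, or -0.88 ± 0.17 (adjusted p = 0.0011) and -0.53 ± 0.15 (adjusted p = 0.015) without replicate 2. Orm2 made up 3.41% ± 0.409 of orosomucoid counts in Ad-FAT10 Pema and 9.83% ± 6.18 in Ad-FAT10 CMC, against 1.54% ± 0.306 in Ad-CTRL Pema and 1.90% ± 0.340 in Ad-CTRL CMC (SD, n = 4 each).

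The carriers of haem, iron and copper limit the free metal and haem that microbes and oxidation can use. Lipocalin 2 (Lcn2) binds bacterial siderophores, hemopexin (Hpx) binds haem, haptoglobin (Hp) binds free haemoglobin, and ceruloplasmin (Cp) carries copper and oxidises iron. All 4 were called higher with Ad-FAT10 under CMC, and Lcn2 and Hpx fell with pemafibrate in both adenoviruses. Lcn2 measured 43.4, 55.9, 95.2 and 85.8 CPM in Ad-FAT10 Pema, 132, 544, 106 and 197 in Ad-FAT10 CMC, 5.76, 16.2, 8.63 and 7.36 in Ad-CTRL Pema and 55.8, 12.8, 33.9 and 18.8 in Ad-CTRL CMC. All Ad-FAT10 CMC livers lay above all Ad-FAT10 Pema livers, and these above all Ad-CTRL Pema livers. With Ad-FAT10 Lcn2 was higher by 2.89 ± 0.53 (SE, adjusted p = 3.5e-04) under Pema and 3.02 ± 0.51 (adjusted p = 1.9e-04) under CMC, or 7.41-fold and 8.11-fold. Its fall with pemafibrate was -1.80 ± 0.49 (adjusted p = 0.010) in Ad-FAT10 and -1.67 ± 0.52 (adjusted p = 0.020) in Ad-CTRL livers. Without replicate 2 the change in Ad-FAT10 livers was -1.03 ± 0.40 (adjusted p = 0.085), which did not pass, and that with Ad-FAT10 under CMC was 2.24 ± 0.42 (adjusted p = 5.3e-04). The call in Ad-CTRL livers was lost without Ad-CTRL CMC replicate 1 or Ad-CTRL Pema replicate 1, 3 or 4, with an adjusted p of up to 0.092.

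Neutrophils also carry Lcn2. The summed level of 10 neutrophil markers, none at 0 in every liver, was 19.3 to 28.5 CPM in Ad-FAT10 Pema, 41.4 to 126.1 in Ad-FAT10 CMC, 6.93 to 10.8 in Ad-CTRL Pema and 8.54 to 17.3 in Ad-CTRL CMC, with 126.1 in replicate 2. Of the 8 markers tested, 8 fell with pemafibrate in Ad-FAT10 livers (12.5% of all genes) and 0 in Ad-CTRL livers (14.4%), also at an unadjusted p under 0.05. The fall of Ngp was lost without Ad-FAT10 CMC replicate 2 or Ad-FAT10 Pema replicate 2 (adjusted p up to 0.11). That of Mmp9 was lost without Ad-FAT10 CMC replicate 2 (adjusted p = 0.068) and that of Cxcr2 without Ad-FAT10 CMC replicate 1 (adjusted p = 0.058). With Ad-FAT10 6 markers were higher under Pema and 8 under CMC. Under Pema the call of Mmp9 was lost when any of 6 livers was left out (adjusted p up to 0.096). That of Cxcr2 was lost when any of 4 was left out (adjusted p up to 0.095). Of all genes 21.2% were higher and 20.5% lower under Pema, and 22.5% and 20.2% under CMC, also beside the lists below. Monocyte markers, 6 of 6 called higher with Ad-FAT10 in each treatment, summed to 233 to 372 CPM in Ad-FAT10 Pema, 303 to 373 in Ad-FAT10 CMC, 117 to 186 in Ad-CTRL Pema and 111 to 176 in Ad-CTRL CMC. The call of F13a1 under Pema was lost when any of 5 livers was left out (adjusted p up to 0.089). Kupffer cell markers, 8 in all, summed to 303 to 604 CPM in Ad-FAT10 Pema, 427 to 597 in Ad-FAT10 CMC, 274 to 480 in Ad-CTRL Pema and 377 to 545 in Ad-CTRL CMC, but did not move as one: with Ad-FAT10 3 were higher and 4 lower under Pema, and 2 were higher and 4 lower under CMC. Of these, named after their values were seen, Clec4f, a lectin of resident Kupffer cells, was at -3.19 ± 0.32 (adjusted p = 2.3e-06) and -2.89 ± 0.32 (adjusted p = 3.0e-06), while Csf1r, the receptor that all macrophages carry, was at 0.80 ± 0.18 (adjusted p = 0.0021) and 0.87 ± 0.18 (adjusted p = 0.0011). The lower call of Marco was lost in each treatment when any of 4 livers was left out. The higher call of C1qa under Pema was lost when any of 3 was left out. The part of neutrophils, monocytes and Kupffer cells in the levels of Lcn2, Saa3 and Cd14 was not tested.

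Hpx measured 4771, 5123, 6106 and 4837 CPM in Ad-FAT10 Pema, 8087, 13722, 8698 and 7852 in Ad-FAT10 CMC, 3164, 4686, 3466 and 3800.0 in Ad-CTRL Pema and 7479, 6281, 6844 and 5995 in Ad-CTRL CMC. Every Pema liver lay below every CMC liver of the same adenovirus. Its fall with pemafibrate was -0.88 ± 0.18 (adjusted p = 0.0013) in Ad-FAT10 and -0.82 ± 0.18 (adjusted p = 0.0019) in Ad-CTRL livers, with an interaction of -0.07 ± 0.25 (SE). The difference with Ad-FAT10 was 0.46 ± 0.18 (adjusted p = 0.044) under Pema, a call lost when any of 10 of the 16 livers was left out (adjusted p up to 0.12). Under CMC it was 0.53 ± 0.18 (adjusted p = 0.023), and this call was lost without Ad-CTRL CMC replicate 2 or 4 or Ad-FAT10 CMC replicate 2, where it was 0.28 (adjusted p up to 0.15). Cp measured 1128, 1256, 1207 and 1206 CPM in Ad-FAT10 Pema, 1427, 1922, 1401 and 1455 in Ad-FAT10 CMC, 659, 1119, 1112 and 911 in Ad-CTRL Pema and 955, 984, 1156 and 1172 in Ad-CTRL CMC. The Ad-FAT10 livers were above the Ad-CTRL livers within each treatment. Cp was higher with Ad-FAT10 by 0.54 ± 0.15 under CMC (adjusted p = 0.0086) and gave 0.34 ± 0.15 (adjusted p = 0.084) under Pema, and its changes with pemafibrate, -0.37 in Ad-FAT10 and -0.17 in Ad-CTRL, did not pass. Hp ranged over 5977 to 6359 CPM in Ad-FAT10 Pema, 4780.4 to 9310.1 in Ad-FAT10 CMC, 3724 to 6059 in Ad-CTRL Pema and 3315 to 5167 in Ad-CTRL CMC. With pemafibrate it gave -0.005 ± 0.20 (adjusted p = 0.99) in Ad-FAT10 and 0.25 ± 0.20 (adjusted p = 0.39) in Ad-CTRL livers, and it was higher with Ad-FAT10 under CMC at 0.66 ± 0.20 (adjusted p = 0.014), or 0.39 ± 0.17 (adjusted p = 0.087) without replicate 2.

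Of the proteins that recognise microbes, Cd14 and Lbp, which together present lipopolysaccharide to its receptor, were higher with Ad-FAT10, while the pentraxins Crp and Apcs (serum amyloid P) were lower or did not pass. Cd14 measured 17.2, 16.5, 19.6 and 12.98 CPM in Ad-FAT10 Pema, 13.6, 16.2, 18.6 and 16.9 in Ad-FAT10 CMC, 4.56, 4.92, 3.84 and 5.07 in Ad-CTRL Pema and 3.23, 3.00, 3.93 and 2.57 in Ad-CTRL CMC. The 8 Ad-FAT10 livers lay far above the 8 Ad-CTRL livers. Cd14 was higher with Ad-FAT10 by 1.85 ± 0.15 (SE, adjusted p = 2.8e-07) under Pema and 2.36 ± 0.16 (adjusted p = 3.5e-08) under CMC, or 3.59-fold and 5.12-fold. It was also the gene that rose with pemafibrate in Ad-CTRL livers, at 0.53 ± 0.16 (adjusted p = 0.020), and this call was lost without Ad-CTRL CMC replicate 4 or Ad-CTRL Pema replicate 4 (adjusted p up to 0.070). In Ad-FAT10 livers it gave 0.02 ± 0.14 (adjusted p = 0.95). Cd14 is made by macrophages and monocytes as well as by hepatocytes.

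Lbp measured 179, 179, 176 and 188 CPM in Ad-FAT10 Pema, 174, 224, 214 and 211 in Ad-FAT10 CMC, 74.1, 129, 135 and 109.8 in Ad-CTRL Pema and 112, 108, 107 and 112 in Ad-CTRL CMC. Again the Ad-FAT10 livers stood above all Ad-CTRL livers. Lbp was higher with Ad-FAT10 by 0.69 ± 0.14 (adjusted p = 6.8e-04) under Pema and 0.90 ± 0.14 (adjusted p = 6.3e-05) under CMC, and with pemafibrate it gave -0.19 in Ad-FAT10 and 0.03 in Ad-CTRL livers, neither past the threshold. Crp went the other way. It measured 185, 163, 149 and 205 CPM in Ad-FAT10 Pema, 339, 301, 287 and 233 in Ad-FAT10 CMC, 242, 256, 285 and 266 in Ad-CTRL Pema and 343, 439, 393 and 348 in Ad-CTRL CMC. Crp fell in all 4 comparisons, with pemafibrate at -0.72 ± 0.12 (adjusted p = 3.4e-04) in Ad-FAT10 and -0.54 ± 0.12 (adjusted p = 0.0029) in Ad-CTRL, and with Ad-FAT10 at -0.58 ± 0.12 (adjusted p = 0.0013) under Pema and -0.39 ± 0.12 (adjusted p = 0.017) under CMC. The last call was lost without Ad-CTRL CMC replicate 2 or Ad-FAT10 CMC replicate 4 (adjusted p up to 0.066). Apcs ranged over 46.0 to 59.0 CPM in Ad-FAT10 Pema, 69.5 to 235 in Ad-FAT10 CMC, 85.1 to 107 in Ad-CTRL Pema and 97.2 to 188 in Ad-CTRL CMC, fell with pemafibrate in Ad-FAT10 at -1.32 ± 0.29 (adjusted p = 0.0029), and was lower with Ad-FAT10 under Pema at -0.90 ± 0.29 (adjusted p = 0.020). The last call was lost without Ad-CTRL Pema replicate 4 or Ad-FAT10 Pema replicate 4. Without Ad-FAT10 CMC replicate 2 Apcs fell with pemafibrate in Ad-FAT10 livers at -0.80 ± 0.22 (adjusted p = 0.013), and under CMC it was then called lower with Ad-FAT10, at -0.59 ± 0.22 (adjusted p = 0.042), against -0.07 ± 0.29 (adjusted p = 0.87) with all livers.

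The fibrinogen genes Fga, Fgb and Fgg encode the 3 chains of the clotting protein. All 3 fell with pemafibrate in both adenoviruses. Their differences with Ad-FAT10 did not pass, and ran from -0.47 (Fgg under Pema) to 0.03 (Fga under CMC). Fgg measured 1516, 992, 1309.8 and 1108 CPM in Ad-FAT10 Pema, 2772, 3643, 2052 and 1769 in Ad-FAT10 CMC, 1329, 2177, 1668 and 1666 in Ad-CTRL Pema and 3544, 2945, 3752 and 3126 in Ad-CTRL CMC. Fgb measured 2688, 2163, 2747 and 2351 CPM in Ad-FAT10 Pema, 5157, 7161, 4220.4 and 3609.6 in Ad-FAT10 CMC, 2260.0, 4259, 3394 and 3041 in Ad-CTRL Pema and 5972, 4976, 6555 and 5517 in Ad-CTRL CMC. For Fga the values were 2834, 2256, 3149.8 and 2266 CPM in Ad-FAT10 Pema, 5564, 7766, 3881 and 3599 in Ad-FAT10 CMC, 2107, 4162, 3612 and 3255 in Ad-CTRL Pema and 5486, 4232, 5521 and 5125 in Ad-CTRL CMC. In each adenovirus every Pema liver was below every CMC liver for all 3 chains, and Ad-FAT10 CMC replicate 2 was the highest liver of its group. The changes with pemafibrate were -1.06 ± 0.21 (SE, adjusted p = 9.3e-04) for Fgg, -1.02 ± 0.20 (adjusted p = 0.0012) for Fgb and -0.99 ± 0.23 (adjusted p = 0.0041) for Fga in Ad-FAT10 livers. In Ad-CTRL livers they were -0.97 ± 0.20 (adjusted p = 0.0014), -0.83 ± 0.20 (adjusted p = 0.0044) and -0.63 ± 0.23 (adjusted p = 0.045) for Fgg, Fgb and Fga, and the call of Fga there was lost when any of 9 of the 16 livers was left out (adjusted p up to 0.13). Without replicate 2 Fgg was called lower with Ad-FAT10 under CMC, at -0.63 ± 0.19 (adjusted p = 0.015), against -0.38 ± 0.20 (adjusted p = 0.14) with all livers.

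The inter-alpha inhibitors are plasma protease inhibitors whose heavy chains can be passed on to hyaluronan in the matrix. Itih1, Itih2 and Itih3 encode heavy chains and Itih4 a related plasma protein, and Itih3 and Itih4 are counted among the positive reactants. Itih4 alone of the 4 passed with pemafibrate. It measured 1149, 1236, 1523 and 1423 CPM in Ad-FAT10 Pema, 2755, 3788, 1867 and 2052 in Ad-FAT10 CMC, 879.6, 1881, 1499.8 and 1348 in Ad-CTRL Pema and 2018, 1712, 2379 and 2399 in Ad-CTRL CMC. The 2 Ad-FAT10 groups did not overlap. Itih4 fell with pemafibrate at -0.97 ± 0.22 (adjusted p = 0.0036) in Ad-FAT10 and -0.60 ± 0.22 (adjusted p = 0.049) in Ad-CTRL livers, the second lost when any of 9 of the 16 livers was left out (adjusted p up to 0.15). Itih1 measured 362, 387, 508 and 396 CPM in Ad-FAT10 Pema, 609, 644, 496 and 435 in Ad-FAT10 CMC, 415, 668, 645 and 524 in Ad-CTRL Pema and 585, 637, 759 and 769 in Ad-CTRL CMC. Its groups overlapped, and the one call, lower with Ad-FAT10 under Pema at -0.45 ± 0.16 (adjusted p = 0.036), was lost without Ad-CTRL Pema replicate 2 or 3 or Ad-FAT10 Pema replicate 1, 2 or 4 (adjusted p up to 0.11). Itih2 measured 468, 533, 683 and 544 CPM in Ad-FAT10 Pema, 743, 791, 651 and 633 in Ad-FAT10 CMC, 451, 782, 762 and 649.8 in Ad-CTRL Pema and 705, 808, 959.5 and 1057 in Ad-CTRL CMC. Its groups overlapped too. Neither Itih2 nor Itih3 passed in any comparison. Itih3 ranged over 587 to 898 CPM in Ad-FAT10 Pema, 692 to 1756 in Ad-FAT10 CMC, 565 to 1065 in Ad-CTRL Pema and 787 to 962 in Ad-CTRL CMC.

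The 10 serpins of the set fall into 2 clusters of close copies. Serpina1a to Serpina1e encode forms of alpha-1-antitrypsin, the main plasma inhibitor of neutrophil elastase, and the Serpina3 genes are the mouse counterparts of human antichymotrypsin. The 5 Serpina1 genes were lower with Ad-FAT10 in both treatments and fell with pemafibrate in Ad-FAT10 livers. Serpina1d measured 703, 654, 675 and 692 CPM in Ad-FAT10 Pema, 1515, 1381, 1139.9 and 931 in Ad-FAT10 CMC, 1469.8, 1989, 1899.6 and 1774 in Ad-CTRL Pema and 2455, 2346, 2359 and 2650.1 in Ad-CTRL CMC. Within each treatment the Ad-FAT10 and Ad-CTRL livers did not overlap. Serpina1d was lower with Ad-FAT10 at -1.39 ± 0.14 (SE, adjusted p = 2.1e-06) under Pema and -0.98 ± 0.14 (adjusted p = 3.1e-05) under CMC, and fell with pemafibrate at -0.87 ± 0.14 (adjusted p = 1.5e-04) in Ad-FAT10 and -0.46 ± 0.14 (adjusted p = 0.015) in Ad-CTRL livers. The last call was lost without Ad-CTRL Pema replicate 1 (adjusted p = 0.051).

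Serpina1b measured 2008, 1718, 1994 and 1726 CPM in Ad-FAT10 Pema, 3362, 3467, 2676 and 2356 in Ad-FAT10 CMC, 3531, 4758, 4514 and 4459 in Ad-CTRL Pema and 5806, 5091, 5219 and 5709 in Ad-CTRL CMC. Within each treatment all Ad-FAT10 livers lay below all Ad-CTRL livers. Serpina1b was lower with Ad-FAT10 at -1.21 ± 0.14 (adjusted p = 7.3e-06) under Pema and -0.88 ± 0.14 (adjusted p = 1.0e-04) under CMC, fell with pemafibrate at -0.67 ± 0.14 (adjusted p = 0.0016) in Ad-FAT10, and gave -0.34 ± 0.14 (adjusted p = 0.076) in Ad-CTRL livers. Serpina1e, the most abundant, ranged over 2124 to 2825 CPM in Ad-FAT10 Pema, 4759.8 to 10040.4 in Ad-FAT10 CMC, 4294 to 7382 in Ad-CTRL Pema and 10099 to 16241 in Ad-CTRL CMC. Its falls with pemafibrate, -1.71 ± 0.23 (adjusted p = 2.4e-05) in Ad-FAT10 and -1.18 ± 0.22 (adjusted p = 5.5e-04) in Ad-CTRL livers, had the largest fitted size of the 5. Serpina1e was lower with Ad-FAT10 at -1.25 ± 0.22 (adjusted p = 2.9e-04) under Pema and -0.72 ± 0.22 (adjusted p = 0.014) under CMC, the call under CMC lost without Ad-CTRL CMC replicate 1 (adjusted p = 0.055). Serpina1a ranged over 556 to 703 CPM in Ad-FAT10 Pema, 747 to 1108 in Ad-FAT10 CMC, 1019.7 to 1298 in Ad-CTRL Pema and 1321 to 1631 in Ad-CTRL CMC. The range of Serpina1c was 90.6 to 200.1 CPM in Ad-FAT10 Pema, 209 to 241 in Ad-FAT10 CMC, 186 to 246 in Ad-CTRL Pema and 267 to 442 in Ad-CTRL CMC. Both passed in all 4 comparisons in the lower direction, with log2 changes between -0.91 (Serpina1a, Ad-FAT10 under Pema) and -0.38 (Serpina1a, pemafibrate in Ad-CTRL). That smallest value was lost when any of 6 of the 16 livers was left out (adjusted p up to 0.091).

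Serpina1 transcripts are 95.7 to 98.2% identical, so the split between members is uncertain. Reads that match several copies may have been left out of the counts, which would lower the sums, shares and per-kilobase levels too, and this was not tested. The summed 5 fell with pemafibrate at -1.21 ± 0.18 (adjusted p = 9.6e-05) in Ad-FAT10 and -0.78 ± 0.18 (adjusted p = 0.0029) in Ad-CTRL, and were lower with Ad-FAT10 at -1.21 ± 0.18 (adjusted p = 6.9e-05) under Pema and -0.79 ± 0.18 (adjusted p = 0.0022) under CMC. As assigned, Serpina1e made up 41.5% ± 1.81 of the cluster's counts in Ad-FAT10 Pema and 58.3% ± 3.89 in Ad-FAT10 CMC, and 42.4% ± 4.89 in Ad-CTRL Pema against 56.0% ± 4.00 in Ad-CTRL CMC (SD, n = 4 each). Pema livers thus held a smaller share of Serpina1e than CMC livers, with no overlap in either adenovirus.

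Among the Serpina3 genes, Serpina3m measured 57.1, 78.8, 81.6 and 107 CPM in Ad-FAT10 Pema, 205, 244, 183 and 228 in Ad-FAT10 CMC, 38.7, 78.0, 42.1 and 38.3 in Ad-CTRL Pema and 222, 212, 327 and 275 in Ad-CTRL CMC. Pema livers were below CMC livers in both adenoviruses. Serpina3m fell with pemafibrate at -1.41 ± 0.22 (SE, adjusted p = 1.3e-04) in Ad-FAT10 and -2.40 ± 0.23 (adjusted p = 2.9e-07) in Ad-CTRL livers. Under Pema it was higher with Ad-FAT10 at 0.72 ± 0.22 (adjusted p = 0.014), lost without Ad-CTRL Pema replicate 4 or Ad-FAT10 Pema replicate 4 (adjusted p up to 0.058), and under CMC it gave -0.27 ± 0.22 (adjusted p = 0.33). Serpina3n, the acute phase member, ranged over 253 to 385 CPM in Ad-FAT10 Pema, 553 to 1186 in Ad-FAT10 CMC, 157 to 347 in Ad-CTRL Pema and 397 to 672 in Ad-CTRL CMC. It fell with pemafibrate at -1.34 ± 0.25 (adjusted p = 7.5e-04) in Ad-FAT10 and -1.27 ± 0.25 (adjusted p = 8.7e-04) in Ad-CTRL, with no overlap in either. Serpina3k, the most abundant of the cluster, ranged over 2504 to 4261 CPM in Ad-FAT10 Pema, 2319.7 to 7055 in Ad-FAT10 CMC, 9158 to 10792 in Ad-CTRL Pema and 9109 to 14481 in Ad-CTRL CMC, and was lower with Ad-FAT10 at -1.64 ± 0.26 (adjusted p = 1.0e-04) under Pema and -1.28 ± 0.26 (adjusted p = 7.7e-04) under CMC. Serpina3g, at 20.5 to 33.7 CPM in Ad-FAT10 Pema, 23.1 to 31.7 in Ad-FAT10 CMC, 9.87 to 18.6 in Ad-CTRL Pema and 12.1 to 21.5 in Ad-CTRL CMC, was higher with Ad-FAT10 by 0.82 ± 0.20 (adjusted p = 0.0032) under Pema and 0.85 ± 0.20 (adjusted p = 0.0025) under CMC. Serpina3c, at 1 to 20 counts a liver, passed in no comparison. It ranged over 0.0297 to 0.309 CPM in Ad-FAT10 Pema, 0.144 to 0.825 in Ad-FAT10 CMC, 0.0499 to 0.308 in Ad-CTRL Pema and 0.206 to 0.997 in Ad-CTRL CMC. As a share of the cluster's counts Serpina3n made up 9.11% ± 3.13 in Ad-FAT10 Pema, 14.2% ± 4.67 in Ad-FAT10 CMC, 2.42% ± 0.824 in Ad-CTRL Pema and 4.80% ± 1.32 in Ad-CTRL CMC (SD, n = 4 each). Pairs in this cluster are 71.7 to 89.9% identical, and the summed 5 fell with pemafibrate in Ad-FAT10 livers at -0.71 ± 0.23 (adjusted p = 0.027), gave -0.31 ± 0.23 (adjusted p = 0.35) in Ad-CTRL livers, and were lower with Ad-FAT10 at -1.51 ± 0.23 (adjusted p = 7.7e-05) under Pema and -1.10 ± 0.23 (adjusted p = 9.9e-04) under CMC. The fall in Ad-FAT10 livers did not pass without Ad-FAT10 CMC replicate 2, at -0.60 ± 0.23 (adjusted p = 0.084). Serpina3k made up 81.0 to 96.9% of the cluster's counts by group mean, and with all livers it was not called with pemafibrate in either adenovirus. In Ad-FAT10 it passed as lower when either of 2 livers was left out. Without Ad-FAT10 CMC replicate 2 Serpina3k gave -0.53 ± 0.27 (adjusted p = 0.20) in Ad-FAT10 and -0.27 ± 0.25 (adjusted p = 0.47) in Ad-CTRL livers.

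The metallothioneins Mt1 and Mt2 are small zinc-binding proteins, and Steap4 is a metalloreductase of iron and copper that inflammatory cytokines induce. All 3 were higher with Ad-FAT10 in both treatments. Steap4 measured 327, 257, 222 and 227 CPM in Ad-FAT10 Pema, 653, 493, 662 and 634 in Ad-FAT10 CMC, 133, 200.5, 148 and 139 in Ad-CTRL Pema and 336, 184, 203 and 165 in Ad-CTRL CMC. All Ad-FAT10 CMC livers were above all others, and replicate 2 was the lowest of them. With Ad-FAT10 it was higher by 0.74 ± 0.20 (SE, adjusted p = 0.0062) under Pema and 1.46 ± 0.20 (adjusted p = 2.5e-05) under CMC. With pemafibrate it fell at -1.24 ± 0.20 (adjusted p = 1.6e-04) in Ad-FAT10 and gave -0.52 ± 0.20 (adjusted p = 0.056) in Ad-CTRL livers. Mt1 measured 163, 163, 256 and 187 CPM in Ad-FAT10 Pema, 280.3, 885, 382 and 426 in Ad-FAT10 CMC, 47.3, 55.4, 76.7 and 114 in Ad-CTRL Pema and 299.5, 82.5, 244 and 211 in Ad-CTRL CMC. Pema and CMC livers did not overlap in Ad-FAT10 and did overlap in Ad-CTRL. Mt1 fell with pemafibrate at -1.36 ± 0.37 (adjusted p = 0.011) and -1.51 ± 0.37 (adjusted p = 0.0046) in Ad-FAT10 and Ad-CTRL livers, and was higher with Ad-FAT10 by 1.39 ± 0.37 (adjusted p = 0.0061) under Pema and 1.24 ± 0.37 (adjusted p = 0.012) under CMC. Without Ad-FAT10 CMC replicate 2 the change with pemafibrate in Ad-FAT10 livers was -0.90 ± 0.34 (adjusted p = 0.071) and that with Ad-FAT10 under CMC 0.77 ± 0.34 (adjusted p = 0.077), neither past the threshold.

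Mt2 measured 0.270, 0.420, 0.297 and 0.781 CPM in Ad-FAT10 Pema, 0.550, 0.726, 0.759 and 1.06 in Ad-FAT10 CMC, 0.156, 0.0534, 0.0499 and 0.220 in Ad-CTRL Pema and 0.528, 0.0462, 0.139 and 0.412 in Ad-CTRL CMC. It had 1 to 31 counts a liver, where Mt1 had 912 to 23149, and 3 of the Ad-CTRL livers held 1 count of Mt2 each. The cause of the gap between the pair was not tested. Summed, Mt1 and Mt2 gave the values of Mt1, at -1.36 ± 0.37 (adjusted p = 0.011) with pemafibrate in Ad-FAT10 and -1.51 ± 0.37 (adjusted p = 0.0045) in Ad-CTRL livers, and at -0.90 ± 0.34 (adjusted p = 0.071) in Ad-FAT10 without Ad-FAT10 CMC replicate 2. Mt2 was called higher with Ad-FAT10 at 1.81 ± 0.60 (adjusted p = 0.022) under Pema and 1.53 ± 0.49 (adjusted p = 0.018) under CMC. Each call was lost without any of 3 livers, Ad-CTRL Pema replicate 2 or 3 or Ad-FAT10 Pema replicate 4 under Pema, and Ad-CTRL CMC replicate 2 or 3 or Ad-FAT10 CMC replicate 4 under CMC, with an adjusted p of up to 0.090 and 0.064. Of 5 zinc handling genes listed beside them, Slc39a14, a zinc importer of the acute phase, fell with pemafibrate at -0.78 ± 0.14 (adjusted p = 5.2e-04) in Ad-FAT10 and -0.52 ± 0.14 (adjusted p = 0.0084) in Ad-CTRL livers. In Ad-FAT10 it was the one of the 5 called with pemafibrate, and in Ad-CTRL Slc30a10 also fell (-0.59 ± 0.17, adjusted p = 0.011). Under CMC the metal-responsive factor gene Mtf1 was higher with Ad-FAT10 (0.38 ± 0.10, adjusted p = 0.0045) and Slc30a10 lower (-0.59 ± 0.17, adjusted p = 0.0082), and under Pema 0 of the 5 were called by edgeR, with 1, Slc39a14, at an unadjusted p under 0.05.

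The remaining tested genes encode a protease trap and a hormone precursor. Agt, which encodes angiotensinogen, measured 419.7, 296, 307 and 346 CPM in Ad-FAT10 Pema, 399.7, 485, 442 and 450.0 in Ad-FAT10 CMC, 311, 451, 462 and 391 in Ad-CTRL Pema and 532, 531, 512 and 721 in Ad-CTRL CMC. Its Ad-CTRL groups did not overlap, and under CMC the Ad-FAT10 livers lay below the Ad-CTRL livers. Agt fell with pemafibrate at -0.51 ± 0.15 (adjusted p = 0.012) in Ad-CTRL livers, a call lost without Ad-CTRL CMC replicate 4 (adjusted p = 0.056), and gave -0.38 ± 0.14 (adjusted p = 0.066) in Ad-FAT10 livers. Under CMC it was lower with Ad-FAT10 at -0.37 ± 0.14 (adjusted p = 0.048), a call lost when any of 10 of the 16 livers was left out. Pzp, a macroglobulin that traps proteases in mouse plasma, measured 1869.6, 2144, 2632 and 2163 CPM in Ad-FAT10 Pema, 3979, 4448, 2875 and 2712 in Ad-FAT10 CMC, 1609.8, 3670.1, 3332 and 2693 in Ad-CTRL Pema and 2611, 2932, 3878 and 3765 in Ad-CTRL CMC. All Ad-FAT10 Pema livers lay below all Ad-FAT10 CMC livers. Pzp was called in 1 comparison, lower with pemafibrate in Ad-FAT10 livers at -0.67 ± 0.22 (adjusted p = 0.035), and that call was lost without Ad-FAT10 CMC replicate 1 or 2 or Ad-FAT10 Pema replicate 1, 2 or 4 (adjusted p up to 0.14).

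**Figure D3:**
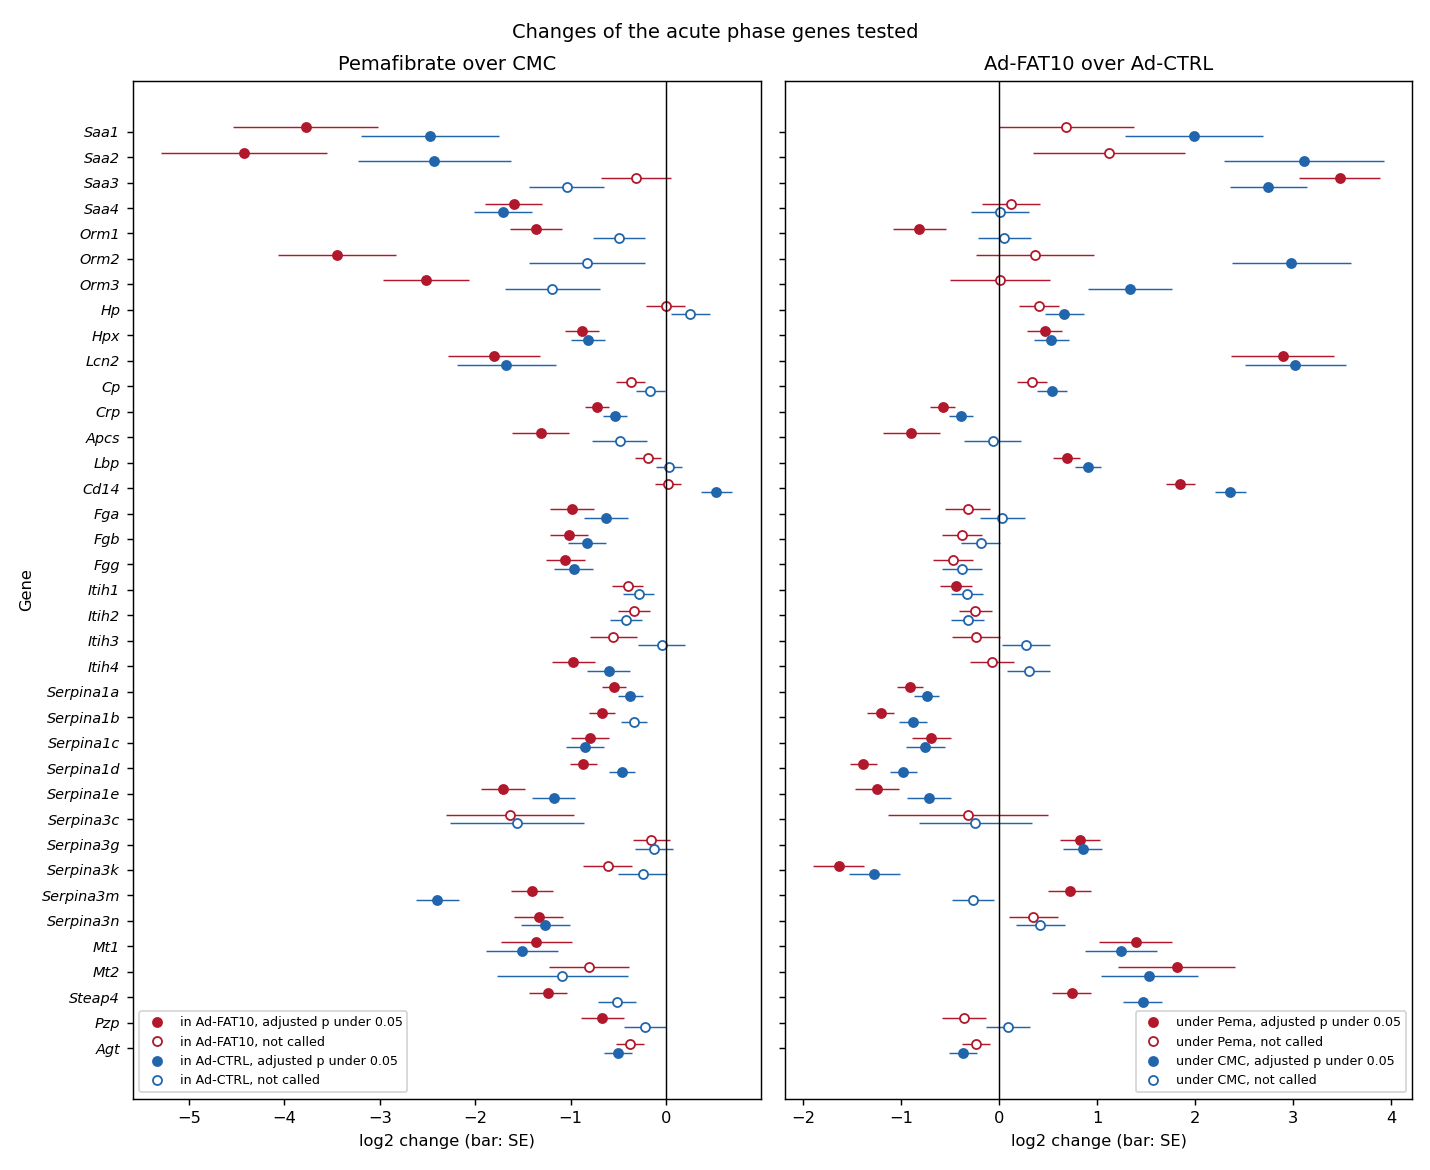
Log2 change of the 37 tested genes, with its SE as a bar, for pemafibrate over CMC (left) and for Ad-FAT10 over Ad-CTRL (right), with filled points at an adjusted p under 0.05. On the left nearly all points lie at or below 0, and on the right Saa3, Lcn2 and Cd14 lie above 1 and the Serpina1 genes below 0 in both treatments.

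Set side by side, members of both classes fell with pemafibrate, while with Ad-FAT10 most genes called higher were positive reactants and most called lower were serpins. With pemafibrate 16 of 23 positive reactants fell in Ad-FAT10 (median log2 change -1.02) and 11 fell in Ad-CTRL livers (-0.82), and of the 11 constitutive or negative ones 7 (-0.67) and 5 (-0.42) fell. Without Ad-FAT10 CMC replicate 2 the positive reactants that fell were 14 (-0.80) in Ad-FAT10 and 15 (-0.84) in Ad-CTRL livers. The constitutive or negative ones were then 6 (-0.57) and 6 (-0.44). With Ad-FAT10, 8 positive reactants were higher and 3 lower under Pema (median 0.36), and 14 were higher and 1 lower under CMC (0.66). Of the 11 constitutive ones 0 were higher in either, also at an unadjusted p under 0.05, while 7 were lower under Pema (-0.70) and 6 under CMC (-0.72). The 6 lower under CMC were Serpina1a to Serpina1e and Serpina3k, close copies in serpin clusters, and Itih1 was the seventh under Pema. Under CMC the other 5 did not pass, at 0.01 for Saa4, 0.09 for Pzp, -0.33 for Itih1, -0.32 for Itih2 and -0.24 for Serpina3c. Of the 11 genes of this class 5 are the Serpina1 copies. Without Ad-FAT10 CMC replicate 2 the positive reactants under CMC counted 8 higher and 4 lower, with a median of 0.39. All genes tested had the shares given above, 12.5% lower with pemafibrate in Ad-FAT10 and 14.4% in Ad-CTRL livers, and with Ad-FAT10 21.2% higher and 20.5% lower under Pema and 22.5% higher and 20.2% lower under CMC. In a second list of 12 classical negative reactants, such as albumin, 0 were higher in any comparison, also at an unadjusted p under 0.05. With Ad-FAT10 10 of these were lower under Pema and 8 under CMC, with Rbp4, the carrier of retinol, at -0.91 ± 0.12 (adjusted p = 1.8e-05) and -0.93 ± 0.12 (adjusted p = 1.2e-05) and Apoa1, the main protein of high density lipoprotein, at -0.97 ± 0.16 (adjusted p = 1.6e-04) and -0.99 ± 0.16 (adjusted p = 1.3e-04). With pemafibrate 7 fell in Ad-FAT10 and 6 in Ad-CTRL livers, among them the fetuin gene Ahsg, at -1.01 ± 0.16 (adjusted p = 1.8e-04) and -1.06 ± 0.16 (adjusted p = 7.5e-05). Some calls in this list were lost when 1 liver was left out. With Ad-FAT10 that of Ahsg was lost without any of 9 livers under Pema or 5 under CMC, and that of Trf without any of 2 under Pema. With pemafibrate in Ad-CTRL, Gc lost its call without any of 6 livers, and Trf and Igf1 without any of 4 each. In Ad-FAT10 Igf1 lost it without any of 5, and Trf without Ad-FAT10 CMC replicate 2.

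Liver by liver, the median of the positive reactants relative to the Ad-CTRL CMC mean ran over -0.62 to -0.41 on the log2 scale in Ad-FAT10 Pema, 0.40 to 1.06 in Ad-FAT10 CMC, -1.07 to -0.43 in Ad-CTRL Pema and -0.21 to 0.22 in Ad-CTRL CMC. The constitutive median ran over -1.86 to -0.92 in Ad-FAT10 Pema, -0.99 to -0.31 in Ad-FAT10 CMC, -0.86 to -0.27 in Ad-CTRL Pema and -0.10 to 0.11 in Ad-CTRL CMC. Positive minus constitutive was 0.29, 1.29, 1.45 and 1.10 in the Ad-FAT10 Pema livers and 0.90, 1.37, 1.24 and 1.45 in the Ad-FAT10 CMC livers. In contrast it was -0.29 to -0.15 in Ad-CTRL Pema and -0.26 to 0.18 in Ad-CTRL CMC. All 8 Ad-FAT10 livers, replicate 2 among them but not at their top, lay above all 8 Ad-CTRL livers, whereas Pema and CMC livers overlapped in Ad-FAT10. The summed hepatocyte and stellate markers given above had lower group ranges in Ad-FAT10 than in Ad-CTRL livers. So did the endothelial sums, but for an overlap under Pema. The part of these cells in these medians was not tested. Alb is both a hepatocyte marker and one of the list of 12.

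**Figure D4:**
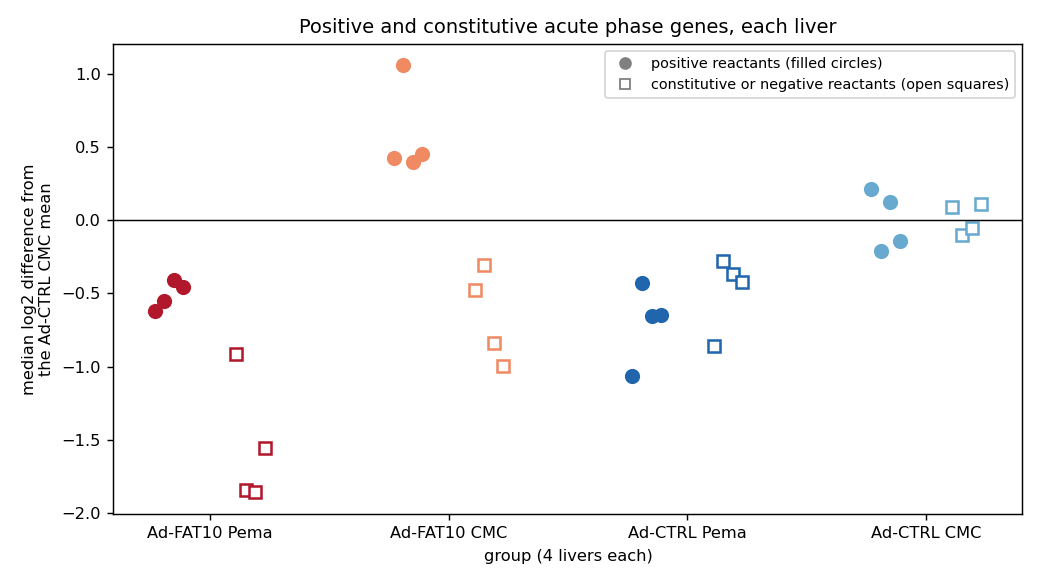
Median log2 difference from the Ad-CTRL CMC mean in each liver, for 23 positive (filled circles) and 11 constitutive or negative acute phase genes (open squares), by group. The 2 classes lie apart in the Ad-FAT10 groups and together in the Ad-CTRL groups, and the circle at 1.06 is Ad-FAT10 CMC replicate 2.

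Ad-FAT10 CMC replicate 2 decided some values and not others. Its level was 16.2 times the mean of the other 3 livers of its group for Saa2, 10.4 times for Saa1, 8.26 for Orm2, 3.75 for Lcn2, 3.22 for Orm3, 2.75 for Orm1, 2.63 for Apcs and 2.44 for Mt1. For Saa3 it was 0.755 times, for Steap4 0.759 and for Cd14 0.986, so it was not the high liver of its group for these. Without it 21 acute phase genes fell with pemafibrate in Ad-FAT10 livers and 23 in Ad-CTRL livers, where 8.92% and 15.3% of all 14973 genes then tested fell. The median log2 change with pemafibrate over the 37 tested acute phase genes was then -0.75 in Ad-FAT10 and -0.62 in Ad-CTRL livers. With Ad-FAT10 under CMC 9 were then higher and 11 lower, where 19.6% of all genes were higher and 20.4% lower.

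**Figure D5:**
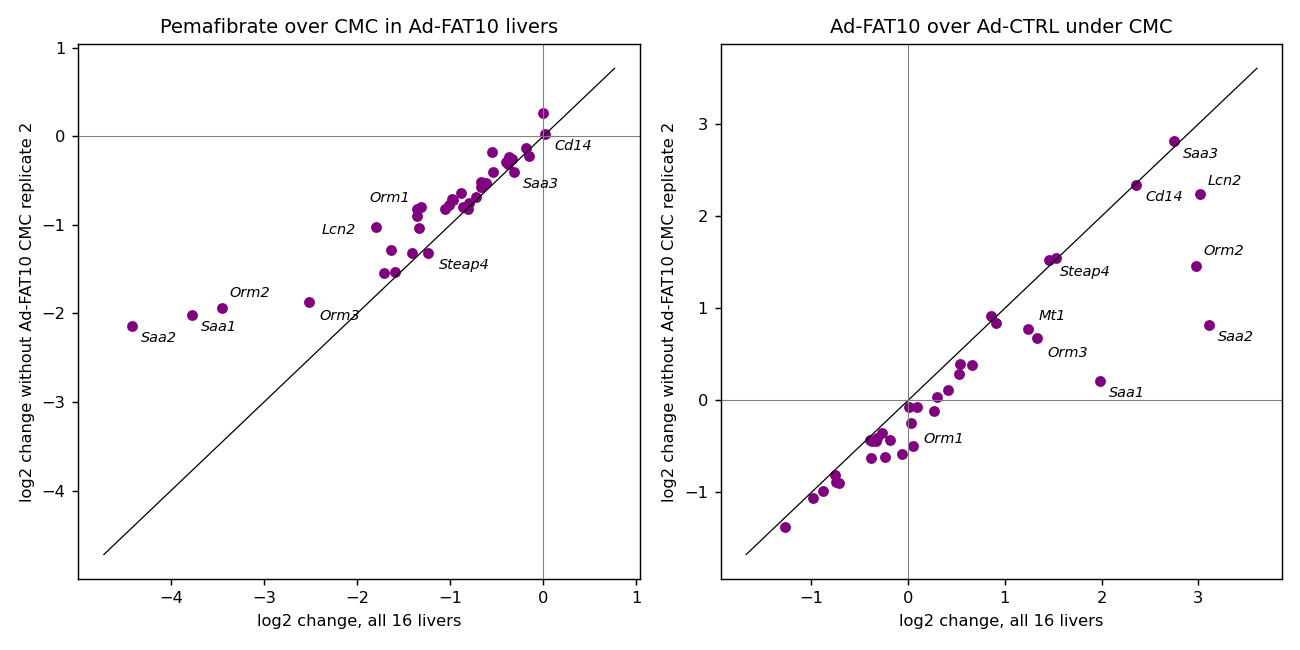
Log2 change of each tested acute phase gene with all 16 livers (horizontal) and without Ad-FAT10 CMC replicate 2 (vertical), for pemafibrate in Ad-FAT10 livers (left) and for Ad-FAT10 under CMC (right), with a line of equality. Saa1, Saa2 and Orm2 lie far from the line, at -2.02, -2.14 and -1.94 without that liver on the left, and Saa3, Cd14 and Steap4 lie near it.

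Whether the answer to pemafibrate depended on FAT10 was tested by the interaction, the change with pemafibrate in Ad-FAT10 minus that in Ad-CTRL livers. Of the 37 genes 0 passed with edgeR, 6 had an unadjusted p under 0.05 and DESeq2 also called 0, where 0.129% of all genes were called lower and 0.0271% higher. The smallest p were those of Serpina3m at 0.99 ± 0.31 (adjusted p = 0.24), Orm2 at -2.62 ± 0.84 (adjusted p = 0.26), Steap4 at -0.72 ± 0.28 (adjusted p = 0.36) and Cd14 at -0.51 ± 0.21 (adjusted p = 0.40). Without Ad-FAT10 CMC replicate 2 these were 1.10 ± 0.33 (adjusted p = 0.26) for Serpina3m, -1.08 ± 0.42 (adjusted p = 0.39) for Orm2, -0.78 ± 0.28 (adjusted p = 0.35) for Steap4 and -0.48 ± 0.23 (adjusted p = 0.50) for Cd14. When no filter on low counts was used, Serpina3m passed as higher and Orm2 as lower. A larger count of falls in Ad-FAT10 than in Ad-CTRL livers is therefore not shown to be a difference in response.

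The genes that signal to this program were read from a list of 30 cytokines, receptors and factors, of which Il6 and Osm were below the filter. Of the 28 tested, 10 fell and 1 rose with pemafibrate in Ad-FAT10 livers (12.5% of all genes fell and 12.9% rose), and 7 fell and 2 rose in Ad-CTRL livers (14.4% and 16.2% of all genes). The receptor Il6ra fell at -1.03 ± 0.17 (SE, adjusted p = 1.9e-04) in Ad-FAT10 and -1.22 ± 0.17 (adjusted p = 2.6e-05) in Ad-CTRL livers. Falls in both adenoviruses were also found for Il1rap, the interleukin-1 co-receptor (-0.53 ± 0.12, adjusted p = 0.0027 and -0.72 ± 0.12, adjusted p = 1.4e-04), and for Lifr, the receptor of leukaemia inhibitory factor (-0.85 ± 0.18, adjusted p = 0.0018 and -0.79 ± 0.18, adjusted p = 0.0026). Myd88, an adaptor of Toll-like and interleukin-1 receptors, rose in both (0.47 ± 0.13, adjusted p = 0.012 and 0.78 ± 0.13, adjusted p = 2.1e-04). With Ad-FAT10 6 were higher and 6 lower under Pema, where 21.2% of all genes were higher and 20.5% lower, shares near those of the list. Under CMC 11 were higher and 4 lower, where 22.5% of all genes were higher and 20.2% lower. The cytokine Lif was higher by 2.99 ± 0.41 (adjusted p = 3.1e-05) under Pema and 3.29 ± 0.42 (adjusted p = 1.2e-05) under CMC, and Tnf by 0.96 ± 0.25 (adjusted p = 0.0054) and 1.64 ± 0.25 (adjusted p = 7.3e-05). The NF-kB subunit Nfkb1 was higher by 0.53 ± 0.12 (adjusted p = 0.0015) and 0.69 ± 0.12 (adjusted p = 1.7e-04), and the liver factor Cebpa was lower at -0.93 ± 0.14 (adjusted p = 6.5e-05) and -0.78 ± 0.14 (adjusted p = 2.8e-04). Il1rn, the antagonist of the interleukin-1 receptor, was the one gene of the list with a called interaction, at -2.0 ± 0.30 (adjusted p = 0.011), with 0.49 for pemafibrate in Ad-FAT10 and 2.49 in Ad-CTRL livers.

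Of 8 further positive reactants outside the set, 4 fell with pemafibrate in Ad-FAT10 livers, where 12.5% of all genes fell, and 1 in Ad-CTRL livers, where 14.4% did, a share near that of the list. In both 0 rose, also at an unadjusted p under 0.05. C9, the last complement component, fell in both, at -1.38 ± 0.23 (adjusted p = 2.8e-04) and -0.88 ± 0.23 (adjusted p = 0.0073), and Lrg1, a glycoprotein that interleukin-6 induces, fell in Ad-FAT10 at -0.95 ± 0.30 (adjusted p = 0.024), a call lost when any of 4 of the 16 livers was left out, Ad-FAT10 CMC replicate 2 among them (adjusted p up to 0.14). With Ad-FAT10 0 of the 8 were higher and 3 lower under Pema (21.2% and 20.5% of all genes), and 1 was higher, the complement factor gene Cfb (0.53 ± 0.19, adjusted p = 0.031), and 1 lower under CMC (22.5% and 20.2% of all genes). The call of Cfb was lost when any of 4 livers was left out (adjusted p up to 0.12). The one that was lower under CMC was Hamp, which encodes the iron hormone hepcidin, at -1.54 ± 0.32 (adjusted p = 0.0011), and it was also lower under Pema at -0.84 ± 0.32 (adjusted p = 0.042), a call lost when any of 6 livers was left out (adjusted p up to 0.15). Also lower with Ad-FAT10 under Pema were C9, at -0.90 (adjusted p = 0.0047), and Lrg1, at -1.02 (adjusted p = 0.010). Both kept that call whichever liver was left out.

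Per kilobase of the longest coding transcript, the leading genes by mean level differed between the groups. In Ad-FAT10 Pema livers Hp came first, at 4647 CPM per kb, and Hpx second, at 3475. In Ad-FAT10 CMC livers Hpx was first, at 6398 CPM per kb, with Serpina1e at 4870.0, Hp at 4663 and Saa2 at 2961. In Ad-CTRL Pema livers Serpina3k led, at 4724 CPM per kb, before Serpina1e at 3542, and in Ad-CTRL CMC livers Serpina1e led, at 8015, before Serpina3k at 5603. Saa1 held place 16 of 38 in Ad-FAT10 Pema, place 5 in Ad-FAT10 CMC or place 10 without Ad-FAT10 CMC replicate 2, place 21 in Ad-CTRL Pema and place 12 in Ad-CTRL CMC. These are ranks of means, and the spread between livers makes neighbouring places uncertain.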

How the data were processed

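RNA from 16 mouse livers, 4 in each of 4 groups set by the sample titles, was sequenced as stranded poly(A) libraries, per the labels' protocols. The deposited tables hold raw counts per Ensembl gene, which the authors made with STAR 2.7.6 on GRCm39, per the submitters' processing notes. These also name DESeq2 1.36.0 and 2.11.40.6. The sources used here name no counting tool, annotation release or strand setting. Symbols came from GENCODE M21, which named 52083 of 55416 IDs (94.0%), and the other 3333 held 0.0988% of counts. Totals were 18663498 to 28898229 counts, and replicates differed by more than sampling noise. The titles number the livers of a group and do not say that each is from its own mouse, so p-values measure the spread between these samples.

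The main test was edgeR 4.0.16 (R 4.3.3): genes kept by filterByExpr (14770), TMM scaling, 1 mean per group over all 16 livers (12 residual degrees of freedom), the quasi-likelihood test and Benjamini-Hochberg adjustment over all 14770 genes, with calls at an adjusted p under 0.05. An SE is the log2 change divided by the square root of F. Levels are CPM after TMM scaling. Per-kilobase levels use the longest coding transcript of GENCODE M21. The same test was run on summed counts of close copies. The scripts were tested on simulated data. Alternatives were DESeq2 1.42.0, other scalings, no filter on low counts, a fit of the compared groups only, the replicate number as a block, and leaving out each liver. The acute phase genes, their classes and the other lists were chosen with earlier results of these data known. In each role the 3 genes with the smallest p over the comparisons are given liver by liver, and the other genes by range. From each other list, genes with the smallest p are named.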

Additional observations from a re-analysis of the deposited data

Results flagged for a closer look

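In 12 of 148 sets of 4 livers (37 acute phase genes in 4 groups), 1 liver's gap to its nearest neighbour took up more of the group's range than Dixon's limit at 95% allows, which chance passes in about 1 set in 20. Ad-FAT10 CMC replicate 2 was that liver in 6 of the 12. It held 5470.0 CPM of Saa1 where the others of its group held 343 to 751, 6516 CPM of Saa2 where they held 265 to 565, and 444 CPM of Orm2 where they held 33.1 to 85.8. It also stood above them for Hpx, at 13722 CPM against 7852 to 8698, and Cp, at 1922 CPM against 1401 to 1455, and below them for Steap4, at 493 CPM against 634 to 662. Its neutrophil marker sum, 126.1 CPM, was also the highest of the 16 livers.

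The other 6 fell in other livers. Orm3 was at 5.22 CPM in Ad-CTRL CMC replicate 1 against 1.49 to 1.76 in the rest of its group, and at 1.71 CPM in Ad-CTRL Pema replicate 2 against 0.848 to 0.934. In Ad-FAT10 Pema replicate 1, Hp was low, at 5977 CPM against 6314 to 6359, and Serpina1e high, at 2825 CPM against 2124 to 2229. Serpina3m was at 78.0 CPM in Ad-CTRL Pema replicate 2 against 38.3 to 42.1, and Agt at 721 CPM in Ad-CTRL CMC replicate 4 against 512 to 532.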

How the results depend on the processing

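DESeq2, DESeq2's size factors and TMM computed without the acute phase genes kept the count of calls in every comparison within 1.5 times of the reported one. Scaled by library totals, 0 acute phase genes rose with pemafibrate in Ad-CTRL livers, and 5 were lower with Ad-FAT10 under CMC and 5 under Pema. Among values of single acute phase genes, 9 lost a call under that scaling and 11 gained one. Under that scaling 7204 of all genes were higher and 826 lower with Ad-FAT10 under Pema, against 3136 and 3024 with TMM, and 6365 and 1061 under CMC, against 3316 and 2977. With no filter on low counts the interaction was called for 1 higher and 1 lower gene. When only the compared groups were fitted, the higher Saa1 with Ad-FAT10 under CMC and the lower Itih1 under Pema were lost.

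Same-numbered livers of different groups deviated together with r from -0.172 to 0.172 (median 0.0041). For differently numbered ones r ran from -0.159 to 0.195 (median -0.0030). The numbers thus gave no sign of a pairing, and a shared batch or order behind them was not tested. With the replicate block, 1 summed family was higher with Ad-FAT10 under CMC in place of 2, and the calls of Saa1 and Agt under CMC were lost.

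When 1 liver was left out at a time, 0 to 1 acute phase genes rose and 12 to 23 fell with pemafibrate in Ad-CTRL livers, and 21 to 28 fell in Ad-FAT10 livers. With Ad-FAT10, 9 to 16 were higher and 6 to 11 lower under CMC, and 7 to 12 higher and 8 to 14 lower under Pema. The fewest higher under CMC, 9, came without Ad-FAT10 CMC replicate 2, which also turned Orm1 to -0.50. The interaction was called higher for 0 to 1. Of the summed families 3 to 5 fell with pemafibrate in Ad-FAT10 livers, and 0 to 2 were higher with Ad-FAT10 under CMC. The gap between the class medians with Ad-FAT10 under Pema ran from 0.93 to 1.41 around 1.06. Of the values of single genes called with all livers, 1279 kept their call over these fits and 97 lost it. Among values not called with all livers, 43 gained a call in the same direction and 1, that of Orm1, in the other. The cause of these shifts was not tested. Depth limits A2m, Mt2 and Serpina3c, which had few counts in any liver.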
